A study of Mus musculus with 225 samples.

Results

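The chondrogenic cells of the E12.5 mouse autopod, the part of the limb bud that forms the digits, were compared with the other autopod cells of the same libraries. An autopod cell was counted as chondrogenic when at least 3 of the 5 cartilage genes *Sox9*, *Col2a1*, *Acan*, *Col9a1* and *Matn1* had 5 or more reads in the raw counts, so the cells were chosen by the measured reads of these genes. This rule took 35 of the 76 autopod cells that the study retained after quality control, out of 199 retained cells in all, and left 41 other autopod cells. All cells came from dissociated forelimbs of embryos heterozygous for *Hoxd11::GFP*, on a mixed C57Bl6CBAF1 background. In this line a tau-GFP cassette sits in frame in the *Hoxd11* coding sequence, so both classes carried one interrupted copy of *Hoxd11*. Limbs of several embryos were pooled, the cells in the top 20% of GFP fluorescence were sorted, and each was captured in a Fluidigm C1 chamber for polyadenylated RNA sequencing. The sort favours cells in which the *Hoxd11* locus was active, so both classes are samples of that fraction and not of the whole autopod. The labels name no embryo for a cell. The cells are therefore not replicates, no test was run, and each share's range is an exact 95% Clopper-Pearson interval. Where no cell had a gene, the share that 3 cells would give is stated as the limit. Intervals and limits cover counting error alone.

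Cartilage of the limb starts as mesenchymal condensations. In these, SOX9 with SOX5 and SOX6 switches on genes of the cartilage matrix, chiefly type II and type IX collagen and the proteoglycan aggrecan. Mesenchyme between and at the tips of the digits instead carries homeobox factors such as MSX1 and LHX9, remains proliferative, and between the digits is later removed.

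The label was first checked against its genes, whose values chose the cells and are given as a description. *Sox9* ranged from 50 to 45596 reads in the chondrogenic cells, with a median of 8311, and reached 5 reads in all 35. It was far from absent in the other cells, where 37 of 41 reached 5 reads and the median was 1039. *Col2a1*, which encodes type II collagen, reached 5 reads in 34 of 35 chondrogenic cells (97.1%, 85.1 to 99.9%), with a median of 547 reads, and in 9 of 41 other cells (22%, 10.6 to 37.6%), with a median of 0. *Col9a1*, a chain of type IX collagen, reached 5 reads in 32 of 35 chondrogenic cells, with a median of 1191 reads, and in 16 of 41 other cells, with a median of 1. The split thus followed *Col2a1* and *Col9a1* more than *Sox9*. *Acan*, which encodes aggrecan, reached 5 reads in 9 of 35 chondrogenic cells and 1 of 41 others. *Matn1*, a matrilin of maturing cartilage, had 0 reads in every cell of both classes, which allows a share of up to 8.57% of chondrogenic and 7.32% of other cells with a read. By their markers, the chondrogenic cells were therefore cells with *Sox9* and collagen transcripts, most of them without detected *Acan*.

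**Figure D1:**
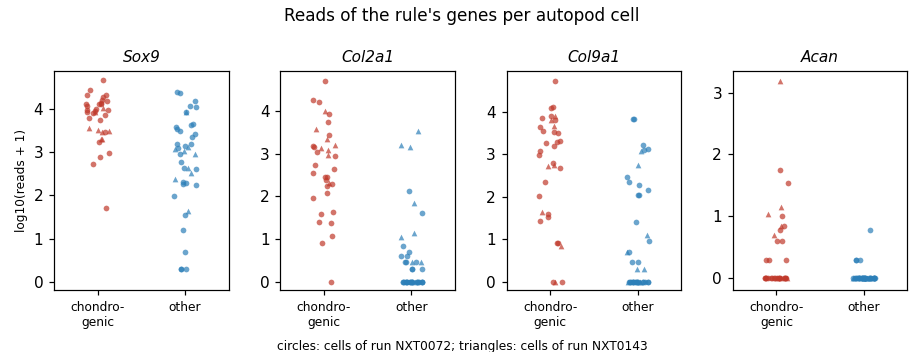
Reads of 4 genes of the rule in each autopod cell, as log10(reads + 1), in 35 chondrogenic (red) and 41 other cells (blue). *Sox9* overlaps widely between the classes, *Col2a1* and *Col9a1* separate most cells, and *Acan* is at 0 reads in 20 chondrogenic cells.

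Of the chondrogenic cells, 26 had *Sox9*, *Col2a1* and *Col9a1* without *Acan*, 3 had *Sox9*, *Col2a1* and *Acan*, 1 had *Sox9*, *Acan* and *Col9a1*, and 5 had all 4. Of the other cells, 24 had 2 of the genes, 15 had 1 and 2 had none. The most common states among them were *Sox9* with *Col9a1* in 14 cells, *Sox9* alone in 13 and *Sox9* with *Col2a1* in 9. The rule has a soft edge: the third-highest gene of the rule had 5, 6, 6, 6 and 7 reads in the 5 chondrogenic cells nearest to it, and 4, 4, 3, 2 and 2 reads in the 5 other cells nearest to it. The share of chondrogenic cells was 27 of 59 cells (45.8%, 32.7 to 59.2%) in sequencing run NXT0072 and 8 of 17 (47.1%, 23 to 72.2%) in run NXT0143.

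Both classes were sequenced to like depth but differed in how many genes were seen. Reads on genes ranged from 395952 to 6539971 per chondrogenic cell and from 187344 to 9437447 per other cell. A median of 3390 genes had a read in chondrogenic cells and 3890 in the others, and after thinning every cell to 500000 reads the medians were 2502 and 3114 (34 and 38 cells). On the deposited scale, normalized to spike-in RNA and gene length, the median difference over 4750 genes was -0.61 (log2, chondrogenic minus other), -0.66 within run NXT0072 and -0.38 within run NXT0143. Whether fewer genes per cell and less RNA per cell contribute to a lower value was not tested. Each difference below is one of mean log2(normalized value + 1) and is to be read against this shift. A gene is called higher or lower when the difference was 1 or more and had the same sign in both runs. Genes entered with 5 or more reads in 25% of the cells of either class, so a gene could enter through the class where it was high: 490 genes did so through the chondrogenic and 1140 through the other cells alone, and 3120 passed in both. Of the 4750 genes, 132 (2.78%) were higher and 1197 (25.2%) lower. Of all 10944 genes of the normalized table outside the rule these were 151 (1.38%) and 1360 (12.4%). With the median of all genes subtracted, 433 (9.12%) were higher and 410 (8.63%) lower, and on log2(CPM + 1), where each cell is scaled to its own reads, 230 (4.84%) were higher and 898 (18.9%) lower. *Xist* together with a Y-linked gene reached 5 reads in 11 of 35 chondrogenic and 13 of 41 other cells, and whether some chambers held more than 1 cell was not tested. No cell of either class had enough markers to be counted as muscle, tendon, epithelium, endothelium, macrophage or nerve, and blood could not be checked, with 1 of its 4 markers in the count table. The markers *Myod1*, *Myog*, *Myf5*, *Tnmd*, *Krt14*, *Krt5*, *Cdh1*, *Krt8*, *Emcn* and *Cx3cr1* had 0 reads in all 76 cells.

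**Figure D2:**
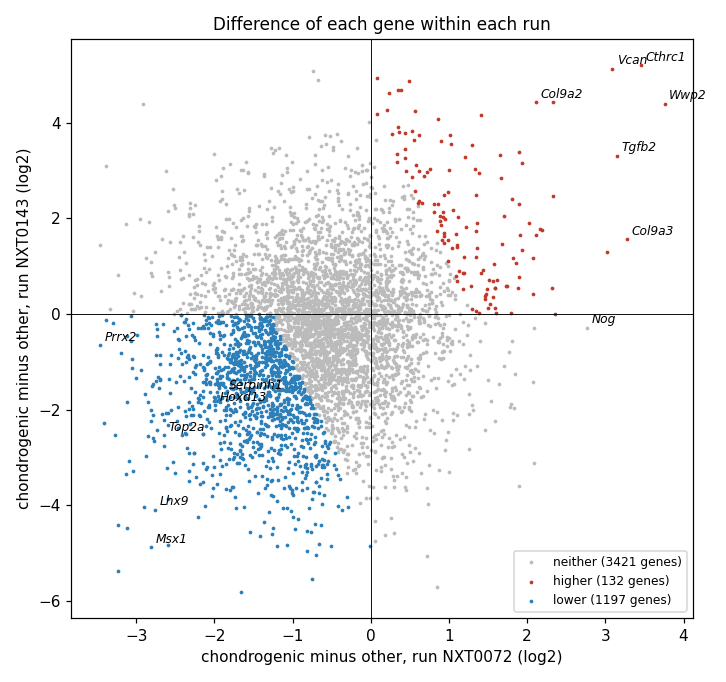
Difference between chondrogenic and other cells (log2) of each of 4750 genes within run NXT0072 (x axis, 27 against 32 cells) and run NXT0143 (y axis, 8 against 9 cells). The 132 higher genes (red) include *Wwp2*, *Vcan* and *Cthrc1*, and the 1197 lower genes (blue) include *Msx1* and *Lhx9*. Most genes lie left of 0.

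Genes of the cartilage matrix and its partners leaned toward the chondrogenic cells. Of the 21 members in the table, 9 were higher and 2 lower, beside 1.38% and 12.4% of all genes of the table. Their median difference was 0.76 beside -0.27. Above the filter the median of 13 members was 1.15 (1.23 within run NXT0072, 1.63 within run NXT0143), but 6 of these entered through the chondrogenic cells alone. Of the 7 that passed in both classes, 2 were higher (*Wwp2* and *Vcan*) and 2 lower, with a median of 0.35 beside -0.59 over all such genes. Of all 3120 such genes 58 were higher and 746 lower. The genes of the rule are not in the matrix list. *Col9a2* and *Col9a3* encode the partner chains of *Col9a1* in the type IX collagen trimer. *Col9a2* ranged from 0.32 to 1291 normalized units in chondrogenic cells and from 0.32 to 1744 in the others, 0.32 being the value of a cell without reads. It reached 5 reads in 17 of 35 chondrogenic cells (48.6%, 31.4 to 66%) and 3 of 41 others (7.3%, 1.5 to 19.9%), a difference of 2.66. The ranges overlapped, and the 3 other cells all came from run NXT0143. *Col9a3* had a median of 9.58 (0.274 to 2393) against 0.274 (0.274 to 2779), with 22 of 35 against 5 of 41 cells at 5 reads and a difference of 2.90. All 3 type IX chains were thus detected in a larger share of the chondrogenic cells, the first of them by the rule.

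*Wwp2*, a ubiquitin ligase gene of cartilage that is a known SOX9 target, had the largest difference of all genes outside the rule, 3.92 (3.76 and 4.40 in the runs). Its median was 207 (0.232 to 13775) in chondrogenic cells and 0.232 (0.232 to 3624) in the others, and it reached 5 reads in 25 of 35 against 12 of 41 cells. *Vcan*, which encodes the large proteoglycan versican of condensing mesenchyme, had a median of 722 (1.59 to 3906) against 8.22 (0.0691 to 3233) and a difference of 3.57. Its difference was one of level more than of presence, since 34 of 35 and 34 of 41 cells had 5 reads. *Papss2*, whose product makes the sulphate donor for proteoglycans, was higher by 1.80, with 16 of 35 against 7 of 41 cells. *Mia*, a small secreted cartilage protein, was higher by 2.00 and was detected in 9 chondrogenic cells and 1 other. *Sdc3*, a syndecan, was higher by 1.15 (0.36 and 3.81 in the runs). *Fgfr3* differed by 0.99, *Col27a1* by 0.45 and *Col11a1* by 0.35, with -0.15 and 2.06 in the runs, and these were not called. The 2 lower members were the collagen chaperone *Serpinh1*, at -1.80, and the collagen export factor *Mia3*, at -1.33. Centring leaves *Mia3* short of a call.

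Of the 8 matrix genes below the filter, *Lect1*, *Hapln1*, *Col11a2* and *Matn4* were seen in few cells, and almost all of those were chondrogenic. *Lect1* (1.41) and *Hapln1* (1.08) were the remaining higher members. *Lect1*, which encodes chondromodulin, reached 5 reads in 7 of 35 chondrogenic cells (20.0%, 8.4 to 36.9%) and 0 of 41 others, which allows up to 7.32%. *Hapln1*, the link protein of aggrecan, was found in 5 and 0 cells, *Col11a2* in 4 and 0, and *Matn4* in 4 and 1. Other members below the filter did not lean this way: *Chst11* was found in 7 and 6 cells and *Matn2* in 1 and 1. *Fmod* reached 5 reads in no cell, which allows up to 8.57% of chondrogenic and 7.32% of other cells. *Lect1* and *Acan* were not found at 5 reads in any one cell together, and *Hapln1* and *Acan* shared 2 cells. At least 1 of *Acan*, *Hapln1*, *Lect1* and *Mia* was present in 21 of 35 chondrogenic cells (60%, 42.1 to 76.1%), 13 of 27 in run NXT0072 and 8 of 8 in run NXT0143, against 2 of 41 others (4.9%, 0.6 to 16.5%). *Acan* is itself a gene of the rule, and *Mia* passed the filter through the chondrogenic cells alone. This contrast is therefore in part set by the choice of genes, and no share without *Acan* was taken.

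The promoters of 4 genes are shown because their genes move with the classes: *Col9a2* and *Vcan* among the higher matrix genes, *Sox6* among the higher factors and *Lhx9* among the lower. Each is the 250 bases before the RefSeq start in GRCm38.p6, at chr4:121039316-121039565 (plus strand), chr13:89742513-89742762 (minus), chr7:116038745-116038994 (minus) and chr1:138842445-138842694 (minus). Capitals mark the SOX core letters ACAATG and ACAAAG or their reverse complements CATTGT and CTTTGT.
Col9a2: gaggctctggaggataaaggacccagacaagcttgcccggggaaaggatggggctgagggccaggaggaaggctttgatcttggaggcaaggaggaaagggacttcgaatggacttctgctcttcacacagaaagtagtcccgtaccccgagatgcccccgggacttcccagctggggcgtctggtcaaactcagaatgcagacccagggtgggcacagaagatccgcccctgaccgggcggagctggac
Vcan: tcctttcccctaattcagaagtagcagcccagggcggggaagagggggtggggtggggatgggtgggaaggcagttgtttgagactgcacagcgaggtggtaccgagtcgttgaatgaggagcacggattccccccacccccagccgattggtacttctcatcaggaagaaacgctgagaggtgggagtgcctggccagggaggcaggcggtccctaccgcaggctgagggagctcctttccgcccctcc
Sox6: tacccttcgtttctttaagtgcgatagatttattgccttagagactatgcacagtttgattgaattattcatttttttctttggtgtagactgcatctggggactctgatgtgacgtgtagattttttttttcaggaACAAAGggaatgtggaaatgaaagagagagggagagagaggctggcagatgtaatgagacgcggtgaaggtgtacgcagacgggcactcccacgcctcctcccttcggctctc
Lhx9: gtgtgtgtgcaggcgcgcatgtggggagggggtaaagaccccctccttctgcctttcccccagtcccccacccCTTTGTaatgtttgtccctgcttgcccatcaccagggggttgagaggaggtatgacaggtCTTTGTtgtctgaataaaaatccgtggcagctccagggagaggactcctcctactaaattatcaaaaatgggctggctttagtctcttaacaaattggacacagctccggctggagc

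The letters were present in 25.2% of all 32851 promoters of the table at this length, in 0 of 7 promoters of the 6 higher matrix genes that matched, in 5 of 7 promoters of *Sox6* and *Foxc1* (all 5 belonging to *Sox6*), and in 1 of 11 promoters of 10 lower interdigit genes. *Col9a3* was not matched. These windows are a description of letters, and sites outside them were not examined.

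Among the factors that act with SOX9, *Sox6* was higher by 1.95 (1.67 and 2.84 in the runs). It had a median of 11.5 (0.113 to 1306) in chondrogenic cells and 0.113 (0.113 to 2132) in the others, with 25 of 35 and 12 of 41 cells at 5 reads. *Sox5*, its close relative, differed by 0.84 and was found in 23 of 35 and 18 of 41 cells, which was not called. *Foxc1*, a forkhead factor of skeletal mesenchyme, was higher by 1.26 but by 0.12 within run NXT0143. Of the 10 factors above the filter, 2 were higher, none lower and 8 neither, with a median of 0.36. Of all genes 2.78% were higher and 25.2% lower. Among the 10, 2 entered through the chondrogenic cells alone, *Foxc1* being 1 of them. Of the 8 that passed in both classes 1 was higher, with a median of 0.19 beside -0.59 over all such genes. *Nfia* differed by 0.48, *Trps1* by 0.23 and *Nfib* by -0.26. The 5 largest differences of genes outside the rule included, beside *Wwp2*, *Vcan* and *Col9a3*, the secreted collagen-triple-helix protein *Cthrc1* (3.85, with 17 of 35 against 5 of 41 cells) and the growth factor *Tgfb2* (3.20, with 22 of 35 against 9 of 41 cells). *Cdc42ep3*, *Itm2a*, *Sulf1*, *Sema3c*, *Lrig3* and *Snai1* were also among the 20 largest, at 2.79, 2.37, 2.25, 2.22, 1.99 and 1.97.

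**Figure D3:**
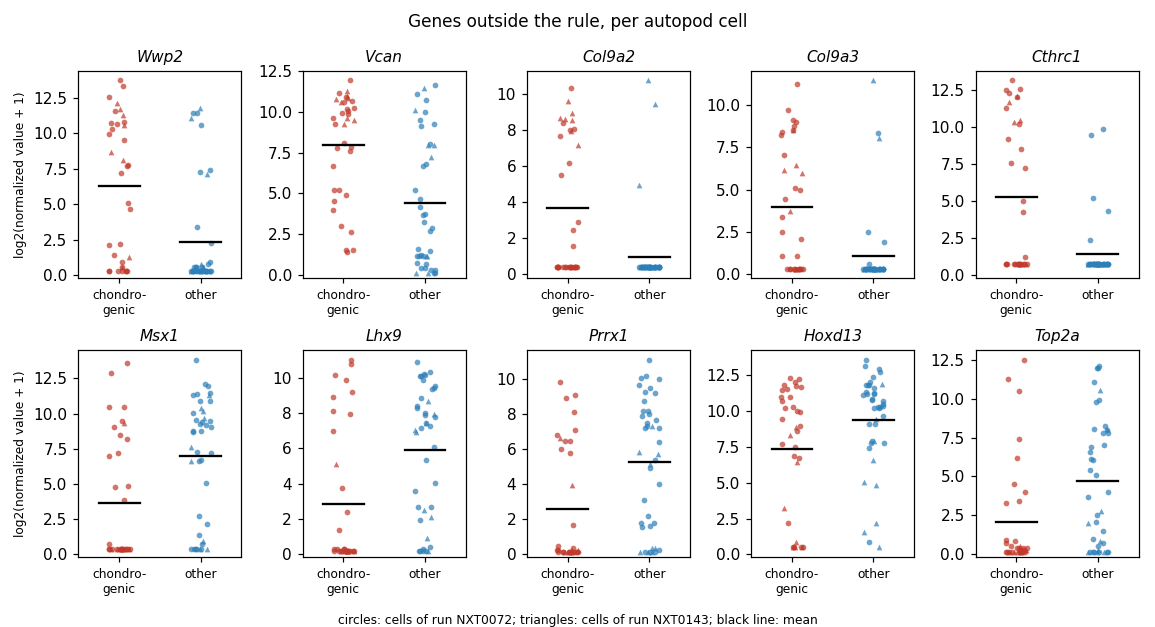
log2(normalized value + 1) of 10 genes outside the rule in each of 35 chondrogenic (red) and 41 other autopod cells (blue), with the mean as a black line. *Wwp2*, *Vcan*, *Col9a2*, *Col9a3* and *Cthrc1* have the higher mean in chondrogenic cells and *Msx1*, *Lhx9*, *Prrx1*, *Hoxd13* and *Top2a* the lower, and for every gene the ranges overlap.

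Genes that make and fold collagen did not move as one. Of 22 members above the filter, 4 were higher, 5 lower and 13 neither, a share of lower genes near the 25.2% of all genes. The share of higher genes among all genes was 2.78%. The median was -0.70, close to that of all genes, with 0.63 within run NXT0143. With the median of all genes subtracted, 6 were higher and 2 lower, beside 9.12% and 8.63% of all genes. Among the 19 members that passed in both classes, 2 were higher and 4 lower before the subtraction, with a median of -0.71 beside -0.59 over all such genes. The higher members modify collagen chains or drive secretion: the lysyl hydroxylases *Plod1* (2.04) and *Plod2* (1.38), the prolyl hydroxylase family gene *P3h3* (2.04) and the secretory transcription factor *Creb3l2* (1.33). *Plod1* and *P3h3*, with the largest of these differences, entered through the chondrogenic cells alone. The lower members were *Serpinh1*, *Mia3*, *Calr* (-1.54), *Fkbp10* (-1.64) and *Sec24c* (-1.12), of which *Serpinh1* and *Fkbp10* stay lower after the subtraction. *Serpinh1* was present in 33 of 35 chondrogenic and 37 of 41 other cells but at a median of 17.2 against 160. Its direction was not stable: the 5 cells with 4 of the rule's genes were above the remaining 71 by 1.13. Of 7 genes of proteoglycan synthesis above the filter, 3 were higher and none lower, beside 2.78% and 25.2% of all genes. These were *Papss2*, the chondroitin synthase *Chsy1* (1.48) and *Ugdh* (1.23), which makes a sugar precursor. Of the 7, 2 entered through the chondrogenic cells alone, *Papss2* among them, and 2 of the 5 that passed in both classes were higher. The glucose transporter *Slc2a1* (1.18) was the 1 higher member among 14 glycolysis genes, and none was lower. Of these 14, 9 passed in both classes and none of the 9 was called.

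Interdigit and distal mesenchyme genes leaned toward the other cells. Of the 29 members in the table, 13 were lower and none higher, beside 12.4% and 1.38% of all genes of the table. Their median was -0.94 beside -0.27. Above the filter the median of 19 members was -1.79 (-1.37 and -1.35 in the runs), and 7 of these entered through the other cells alone. After centring 10 of the 19 were lower and 1 higher, beside 8.63% and 9.12% of all genes. Of the 11 that passed in both classes, 7 were lower and none higher, with a median of -1.87 beside -0.59 over all such genes. Of all 3120 such genes 746 were lower and 58 higher. *Msx1*, a homeobox repressor of undifferentiated distal cells, had a median of 0.323 (0.323 to 12204) in chondrogenic cells, the value without reads, and 425 (0.323 to 14667) in the others. It reached 5 reads in 14 of 35 (40%, 23.9 to 57.9%) and 32 of 41 cells (78%, 62.4 to 89.4%), a difference of -3.29. *Lhx9*, a LIM homeobox gene of distal mesenchyme, was found in 13 of 35 and 34 of 41 cells and differed by -3.07. *Prrx2* (-2.86), *Prrx1* (-2.65) and *Twist1* (-2.19), factors of limb mesenchyme, reached 5 reads in 4, 14 and 12 chondrogenic cells and in 23, 33 and 31 others. *Aldh1a2*, the retinoic acid synthesis enzyme of the interdigit, was found in 5 of 35 and 12 of 41 cells and differed by -2.03. *Msx2* (-1.87), *Zfhx4* (-1.88), *Tfap2b* (-1.83), *Bmp2* (-1.79), *Dlx5* (-1.22), *Hand2* (-1.17) and *Tfap2a* (-1.14) were lower too. *Cyp26b1*, which breaks down retinoic acid, was found in 15 of 35 and 15 of 41 cells. Both classes overlapped for each of these genes, and chondrogenic cells with *Msx1* or *Lhx9* were not rare.

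Over all autopod cells, *Hoxd13*, *Hoxd12* and *Hoxd11* were lower in the chondrogenic class and *Hoxd10* was not called. *Hoxd13*, the terminal gene of the cluster and a digit determinant, had a median of 469 (0.402 to 5018) in chondrogenic cells and 1295 (0.402 to 12319) in the others, with 27 of 35 and 38 of 41 cells at 5 reads. Its difference was -2.01 (-1.99 and -1.91 in the runs). *Hoxd12* differed by -2.06, with 13 of 35 and 24 of 41 cells. *Hoxd11*, the locus of the sorted reporter, differed by -1.39, with 27 of 35 (77.1%, 59.9 to 89.6%) and 40 of 41 cells (97.6%, 87.1 to 99.9%). *Hoxd10* differed by 0.15, with 20 of 35 and 23 of 41 cells. Of the *Hoxa* genes, *Hoxa10* differed by -1.39, *Hoxa13* by -0.52 and *Hoxa9* by 0.60. Of 9 *Hoxd* and *Hoxa* cluster genes above the filter, 4 were lower and none higher, beside 25.2% of all genes called lower. After subtracting the median of all genes, *Hoxd11* and *Hoxa10* are no longer past 1. Then 2 of the 9 stay lower and 1 is higher, beside 8.63% and 9.12% of all genes. The direction also depended on the cells compared: *Hoxd11* differed by 1.21 between the 5 cells with 4 of the rule's genes and the remaining 71, and by 0.57 once cells with 2 or 3 were left out. The latter sets 5 cells against 17, and all 17 came from run NXT0072. *Hoxd13* differed by 1.13 among the cells with *Xist* and no Y-linked gene (6 against 4).

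**Figure D4:**
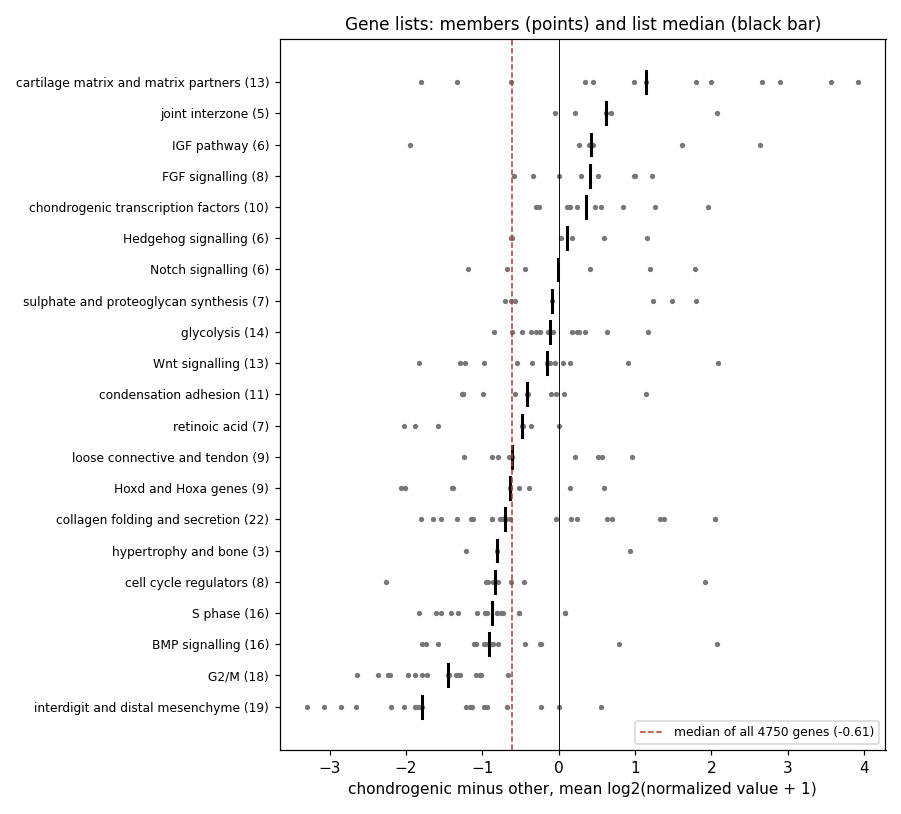
Difference between chondrogenic and other autopod cells (log2) for the members of 21 gene lists (grey points, number above the filter in brackets), with each list's median (black bar) and the median of all 4750 genes (dashed line, -0.61). Cartilage matrix genes have the highest median of the lists plotted, at 1.15, but 6 of the 13 entered through the chondrogenic cells alone. Among members that passed in both classes their median is 0.35, below the 0.42 of IGF pathway genes. Interdigit (-1.79) and G2/M genes (-1.44) have the lowest medians, and 7 of 19 and 13 of 18 entered through the other cells alone. Within run NXT0072 the G2/M median (-1.56) and within run NXT0143 that of S phase genes (-1.41) is the lowest.

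Mitosis genes were lower almost throughout. Of 22 G2/M genes in the table, 18 were lower and none higher, beside 12.4% and 1.38% of all genes of the table. Their median was -1.33 beside -0.27. Above the filter the median of 18 was -1.44, and 13 of the 18 entered through the other cells alone. After centring 7 of these 18 were lower, beside 8.63% of all genes. The 5 that passed in both classes were all lower, beside 746 of all 3120 such genes. *Top2a*, a topoisomerase of dividing cells, reached 5 reads in 14 of 35 and 31 of 41 cells and differed by -2.64. *Cdk1*, the mitotic kinase, differed by -2.37, and *Birc5* by -2.21. Among 16 replication genes, 6 were lower, with a median of -0.88, beside 25.2% of all genes. After centring 1 of the 16 was lower, beside 8.63% of all genes. *Mycn*, a growth-promoting factor of limb mesenchyme, was lower by 2.26, and *Cdkn1c*, an inhibitor of the cell cycle, was higher by 1.92. Counted per cell, 4 of 35 chondrogenic cells (11.4%, 3.2 to 26.7%) and 14 of 41 others (34.1%, 20.1 to 50.6%) had at least 3 of *Mki67*, *Top2a*, *Ccnb1* and *Cdk1*. The median number of genes detected was 5027 in the 14 other cells with these markers and 3501 in the 27 without, while in the chondrogenic cells it was 3236.5 in the 4 with and 3390 in the 31 without. With all such cells left out, the G2/M median was -0.20, that of the interdigit list -0.93 and that of the matrix list 1.72. The genes that picked these cells are members of the G2/M list, so its smaller difference is in part set by the choice.

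Signalling genes were mixed, and with the median of all genes subtracted the medians of the Wnt (-0.16), Notch (-0.01) and retinoic acid (-0.48) lists turn positive. Of 16 BMP pathway genes above the filter, 4 were lower (*Bmp2*, *Smad7* at -1.73, *Bmpr1a* at -1.58 and *Id1* at -1.09) and none higher, beside 25.2% of all genes called lower. After centring 2 were higher and 2 lower, and *Bmpr1a* and *Id1* were no longer called. The receptor *Bmpr1b*, which acts in condensations, differed by 0.79 and was found in 16 of 35 and 8 of 41 cells. *Nog*, the secreted BMP antagonist of cartilage and joints, was found in 13 of 35 and 3 of 41 cells but differed by 2.77 within run NXT0072 and by -0.29 within run NXT0143. The joint genes *Gdf5* and *Erg* were found in 8 and 12 chondrogenic cells and 6 and 3 others. *Gdf5* differed by -0.01 within run NXT0072 and by 3.53 within run NXT0143. These genes and *Nog* were picked from a list of 15 joint genes. Of its 5 members above the filter none was higher or lower, with a median of 0.62 (0.52 and -0.06 in the runs). After centring 3 were higher and none lower, beside 9.12% and 8.63% of all genes. But 3 of the 5, with *Nog* and *Erg* among them, entered through the chondrogenic cells alone. The 2 that passed in both classes had a median of 0.08 and were not higher after centring. *Osr1* of this list went the other way, in 2 chondrogenic and 7 other cells. At least 2 of *Gdf5*, *Nog* and *Erg* were present in 10 of 35 chondrogenic (28.6%, 14.6 to 46.3%) and 1 of 41 other cells (2.4%, 0.1 to 12.9%). Of the Wnt genes *Lgr4*, a receptor for R-spondins, was higher by 2.09, while the ligand *Wnt5a* was lower by 1.30 on the log2 scale. *Fgfr2* (1.22), *Hes1* (1.20), *Maml2* (1.78) and the Hedgehog co-receptor *Boc* (1.16) were higher. *Igf2*, a fetal growth factor, was higher by 1.62, and *H19*, the noncoding RNA beside it, by 2.64, while the binding protein gene *Igfbp4* differed by -1.95.

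Levels were also set out over all 76 cells by the number of the rule's genes they carried. The cells with 2 or fewer are the other cells, so the classes part between 2 and 3, and the step from 3 to 4 alone lies within the chondrogenic cells. The mean level of *Col9a2* was 0.40 in the 17 cells with 0 or 1 of these genes, 1.40 in the 24 with 2, 2.98 in the 30 with 3 and 7.67 in the 5 with 4. *Sox6* stood at 0.68, 2.5, 2.99 and 7.94, and *Vcan* at 4.19, 4.56, 7.53 and 10.63 in the same order. *Lhx9* ran the other way, at 6.29, 5.66, 3.06 and 1.59, and *Hoxd13* at 10.16, 8.79, 7.42 and 6.88. *Msx1* was as high with 2 genes (7.20) as with 0 or 1 (6.63) and lower with 3 and 4 (4.10 and 1.10). Some genes followed no such order: *Hoxd11* stood at 6.58, 6.73, 4.96 and 7.16 and *Serpinh1* at 5.83, 7.35, 4.58 and 6.94, and from 3 to 4 genes *Hoxd12* went from 2.06 to 2.41, *H19* from 9.78 to 9.41 and *Mia* from 3.64 to 3.59. The cells with 4 are few, and 3 of the 5 came from run NXT0143. All 17 cells with 0 or 1 came from run NXT0072. So did 15 of the 24 with 2 and 25 of the 30 with 3. Number of genes and run therefore cannot be told apart at either end.

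**Figure D5:**
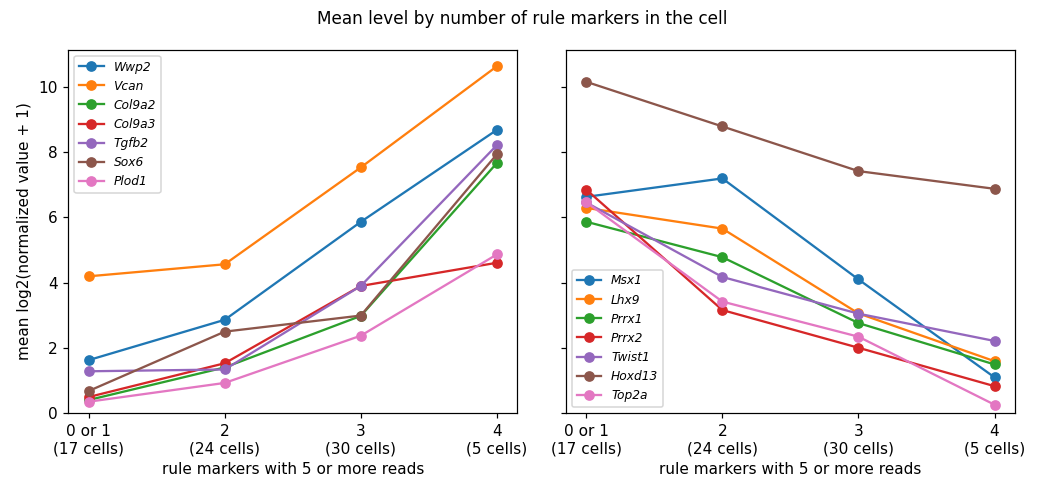
Mean log2(normalized value + 1) of 14 genes outside the rule against the number of the rule's genes with 5 or more reads in the cell (17, 24, 30 and 5 cells). The genes on the left are highest in the 5 cells with 4, and those on the right are lowest there. All 17 cells with 0 or 1 came from run NXT0072.

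Within the 35 chondrogenic cells, *Col2a1* levels ranked with those of *Col9a3* (Spearman's rho = 0.63, and 0.66 in the 27 cells of run NXT0072) and *Col9a2* (0.58 and 0.42). *Sox9* levels ranked with those of *Tgfb2* (0.61, and 0.81 in run NXT0072) and *Hoxd13* (0.50 and 0.43) more than with those of *Col2a1* (0.15 and 0.38). *Col2a1* and *Hoxd13* ranked in opposite directions, at -0.35 and -0.21. These are descriptions over cells that share libraries, size factors and runs.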

How the data were processed

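Single autopod cells were sequenced in runs NXT0072 and NXT0143. The authors mapped 75-base reads to mm10 (GRCm38) with Bowtie2 and deposited counts per gene for 225 cells. They also deposited a normalized signal for 10948 genes in 199 cells, in which counts were divided by spike-in size factors (scran) centred within each run and then by gene length in kb. A cell without reads has a floor value set by gene length. Cells were classed on the counts, and differences were taken on log2(normalized value + 1) with a pseudocount of 1. Genes entered with 5 or more reads in 25% of either class, and the genes of the rule were left out. Spike-in rows (92) were not used, and no doublet caller was run. Computation used Python 3.11.15, numpy 2.4.6, pandas 2.3.3 and scipy 1.17.1, and the scripts were tested on simulated data. Gene names follow the files, and promoters came from RefSeq (GRCm38.p6). Named genes were members of the gene lists, the 20 largest differences in each direction with the same sign in both runs, and the 10 genes most like *Sox9* by mean within-run Spearman correlation. The members and lists were chosen with earlier results of these data known. Alternatives covered scaling, pseudocount, filter, thinning, run, rule, centring and sex genes.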

Additional observations from a re-analysis of the deposited data

How the results depend on the processing

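No paired analysis was possible because no result comes from a test and the labels pair no cells. The matrix, interdigit and G2/M list medians kept their direction under the alternatives below, while those of other lists nearer 0 turned under some, and the cause of the changes below was not tested. Depth limits genes below the filter, where absence in a cell cannot be shown, and run NXT0143 holds 8 chondrogenic cells. With 2 of 5 genes required there were 59 chondrogenic cells and with 4 of 5 there were 5. The difference in median genes detected was -612.5 after thinning. Counts of higher genes were 230 on CPM, 38 at a pseudocount of 10, 215 after thinning, 714 in run NXT0143, 251 with 2 of 5 genes, 743 with 4 of 5, 780 without cells that had 2 or 3 of the genes, 433 after centring, 1457 in 10 cells with *Xist* alone, 705 in 36 cells with Y-linked genes alone and 16 at a threshold of 2. Counts of lower genes were 548 at a pseudocount of 10, 410 after centring, 680 with Y-linked genes alone and 174 at a threshold of 2. With 2 of 5 genes, and without cells that had 2 or 3, all other cells came from run NXT0072. In these 2 settings and in run NXT0143 alone, only 1 run held both classes. Their counts required no agreement between runs, so they are not like the main counts.

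The matrix, interdigit and G2/M list medians, in this order, were 1.59 and -1.62 (the first 2 lists) on CPM, 1.71, -2.18 and -1.84 at a pseudocount of 0.1, 0.57, -1.05 and -0.93 at 10, 1.64 and -1.91 (the first 2 lists) after thinning, 1.63, -1.35 and -1.08 in run NXT0143, 0.78, -1.09 and -2.59 with 2 of 5 genes, 2.33, -1.61 and -2.005 with 4 of 5, 2.53, -2.18 and -4.06 without cells that had 2 or 3, 1.76, -1.18 and -0.83 after centring, and 2.36, -1.56 and -0.89 with Y-linked genes alone. The interdigit median was -1.37 in run NXT0072, -1.37 with 10 reads per gene, -1.01 with *Xist* alone, -1.14 with the filter at 10% and -0.94 with no filter.

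Other settings were chosen after seeing the data. Without cycling cells, which were picked by members of the G2/M list, 297 genes were higher and 511 lower, and the list medians were 1.72, -0.93 and -0.20. In cells with 2500 to 4500 genes detected 334 were higher and 684 lower, with an interdigit median of -1.36. On centred CPM 476 were higher and 450 lower, with medians of 1.98, -1.23 and -1.10. *Col2a1* alone as the rule gave 43 cells.

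The 1802 comparisons of single genes also took in genes not called higher or lower, whose changes of sign were not counted. Examples are *Col11a1* (0.35 over all cells, -0.15 within run NXT0072) and *Nog* (2.07 over all cells, -0.29 within run NXT0143). The count below is therefore not a rate over all 1802. Genes called higher or lower in the main comparison turned in direction in 39 comparisons. With 2 of 5 genes *Aldh1a2* (0.19), *Chsy1* (-0.32) and *Serpinh1* (0.080) did. With 4 of 5 *Hoxd11* (1.21), *Igfbp4* (0.58), *Itgb1* (1.83), *Itm2a* (-1.11), *Mia3* (0.091), *Sec24c* (0.45), *Serpinh1* (1.13) and *Wnt5a* (0.33) did, and without cells that had 2 or 3 *Hoxd11* (0.57), *Itgb1* (1.20) and *Serpinh1* (1.11). Among cells with *Xist* alone (6 against 4) these were *Boc* (-1.25), *Calr* (0.061), *Cthrc1* (-0.21), *Eif1a* (0.22), *Fkbp10* (0.38), *Foxc1* (-1.62), *Hoxd13* (1.13), *Itgb1* (1.26), *Lhx9* (1.23), *Lrig3* (-0.66), *Mycn* (0.50), *Plod2* (-1.10), *Prrx2* (0.13), *Sdhc* (0.22), *Sec24c* (0.082) and *Serpinh1* (1.47). With Y-linked genes alone they were *Calr* (0.54), *Epha4* (1.18), *Hoxa10* (0.22), *Id1* (0.997), *Itgb1* (0.76) and *Sec24c* (0.46). Within 2500 to 4500 genes detected *Epha4* (0.12) and *Mia3* (0.0079) did, and with *Col2a1* alone as the rule *Itgb1* (0.026) did.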

Other observations

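Over all autopod cells, the gene most like *Sox9* in rank was *Tcf7l2*, a nuclear effector of Wnt signalling, with a mean within-run Spearman's rho of 0.70 (0.68 in 59 cells and 0.73 in 17). *Cdc42ep3* (0.64), *Iqcf3* (0.61), *Fibin* (0.53) and *Cd24a* (0.52) followed, and *Bmpr1b* (0.47) was the tenth. *Tcf7l2* was found in 34 of 35 chondrogenic and 36 of 41 other cells and differed by 0.90. *Iqcf3* was found in 19 of 35 and 6 of 41 cells and differed by 0.66. Cells share size factors and libraries, so these values are a description.

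The lower genes with the largest differences also held genes of general cell function. The respiratory chain genes *Ndufv1* (-3.47), *Cyc1* (-3.19) and *Sdhc* (-3.09), the translation factor *Eif1a* (-3.10) and the chromatin factors *Ssrp1* (-3.17) and *Trim28* (-3.13) were among the 20 largest. *Ndufv1* reached 5 reads in 8 of 35 chondrogenic and 25 of 41 other cells. The number of genes detected moved in the same direction, and its part in these differences was not tested. Of 11 adhesion genes of condensations above the filter, *Ncam1* (-1.27), *Itgb1* (-1.26) and *Epha4* (-1.25) were lower and *Sdc3* was higher. The share of lower genes was near the 25.2% of all genes, and none of the 3 stays lower when the median of all genes is subtracted. The list median of -0.41 then turns to 0.20. Of 9 connective tissue and tendon genes, *Col1a2* (-1.24) was lower and none was higher, beside 25.2% and 2.78% of all genes. After centring 2 of the 9 were higher and none lower, beside 9.12% and 8.63% of all genes. Of 3 hypertrophy and bone genes above the filter, *Dlx5* (-1.22) was lower and none was higher, with a median of -0.81. After centring 1 of the 3 was higher and none lower. Of the list's genes above or below the filter, *Pth1r* reached 5 reads in 3 of 35 chondrogenic and 12 of 41 other cells, *Col10a1* in 4 and 1, and *Mef2c* in 16 of 35 and 11 of 41.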
